A study of Mus musculus with 5 samples.

Results

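The cells described here carried at least 1 unique molecular identifier (UMI, a count of 1 captured transcript) of Gzmb and 0 UMIs of Foxp3, Il2ra and Eomes, in the 2 libraries from tumor-bearing mice given diphtheria toxin. There were 245 such cells, 85 of 2186 in the library with toxin alone and 160 of 4343 in the library with toxin and anti-CTLA4 antibody, among 20149 cells in 5 libraries. They are called Gzmb-positive Foxp3-negative cells below. They were compared with the cells of the same library that had 0 UMIs of all 4 genes (627 with toxin alone and 1563 with both treatments, called Gzmb-negative cells) and with the cells that had UMIs of both Gzmb and Foxp3 (1172 and 1347, whatever their Il2ra and Eomes). The 3 sets were chosen by the UMIs of these genes, so the levels of Gzmb, Foxp3, Il2ra and Eomes are given as a description only.

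Granzyme B, encoded by Gzmb, is a serine protease stored in the granules of killer lymphocytes and released with the pore-forming protein perforin. It is best known from CD8 T cells and natural killer (NK) cells, but activated CD4 T cells and regulatory T cells (Tregs, which express the transcription factor Foxp3) can make it too. In a CD4 T cell without Foxp3 it is commonly read together with Nkg7, a granule membrane protein, Gzma, a second granzyme, and genes of the T helper 1 (Th1) program such as Tbx21, Ifng and Cxcr6.

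Each library came from cells sorted as CD4+CD45.1+ SMARTA cells, CD4 T cells with a transgenic T cell receptor, and 1 library was made per group. The naive cells came from spleen and had no treatment, and the other 4 groups (no treatment, anti-CTLA4, diphtheria toxin, and both) came from the inguinal lymph node on the tumor side on day 8 after tumor injection. Toxin was given on days 0 and 2 and antibody on days 0, 2 and 5. The 2 toxin groups are labelled as depleted of Tregs, and toxin is tied to them through the treatment protocol, which names PBS as its control. Every group is listed as C57BL/6, and no allele that would make cells sensitive to the toxin is named. The tumor is MC38 in one protocol and PyMG in another, isotype antibody appears only in the series description, and the number of mice per library is not given in the sources used here. In the libraries labelled Treg-depleted, 53.6% and 31.02% of the sorted cells had UMIs of both Gzmb and Foxp3.

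With 1 library per group, no difference between groups or between cell sets has a replicate check. No test was made. Levels are given as CPM, the UMIs of a gene summed over the cells of a set and scaled to a common total. Intervals are exact 95% intervals for counting error alone: Poisson for a level, conditional binomial (Clopper-Pearson) for a ratio and binomial for a share of cells. They do not cover variation between cells or mice, and a gene carried by few cells varies more than its interval shows. A gene counted as higher or lower when it was at least 2-fold away in the same direction in both toxin libraries, and members of gene lists from 1.5-fold. The median UMI count per cell was 5209 with toxin alone and 2468 with both treatments, and the library totals were 16151098 and 16865422 UMIs over 11924 listed genes. The 2 toxin libraries shared 4 cell barcodes. Cd4 was detected in 68 of the 85 Gzmb-positive Foxp3-negative cells with toxin alone and 80 of the 160 with both treatments. Cd8a was at 0 and 2 UMIs in them, and the summed CD8 markers (Cd8a and Cd8b1) were at 49.8 and 86.1 CPM against 48.9 and 65.9 in Gzmb-negative cells. Of 9 listed NK cell markers 3 were detected with toxin alone and 4 with both treatments, summing to 343 and 495 CPM against 363 and 281. Ncr1, Klra4, Klra8, Klra9 and Tyrobp were at 0 UMIs in both libraries. The markers include Il2rb, which is also on the list of interleukin 2 genes used below. It was the only 1 detected in the cells with 2 or more Gzmb UMIs and both treatments, at 832 CPM. Summed B cell markers were at 23364 and 1278 CPM against 13402 and 5903 in Gzmb-negative cells, plasma cell markers at 3100 and 5.56 against 1246 and 377, and myeloid markers at 230 and 272 against 503 and 892. The part of such cells in the results was not tested beyond the values given below.

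Most Gzmb-positive Foxp3-negative cells carried a single Gzmb UMI. With toxin alone 57 of 85 cells had exactly 1 (67.1%, 56.0 to 76.9) and 28 had more, up to 32. With both treatments 109 of 160 cells had exactly 1 (68.1%, 60.3 to 75.3) and 51 had more, up to 50. Among Gzmb-positive Foxp3-positive cells a single Gzmb UMI was found in 4.44% and 8.83%, and the median was 22 and 10 UMIs per cell against 1 and 1. The summed Gzmb level was 561 CPM in Gzmb-positive Foxp3-negative cells with toxin alone against 3863 in Foxp3-positive cells, and 1520 against 2557 with both treatments. The Foxp3-negative cells held 293 of 41924 Gzmb UMIs with toxin alone (0.699%) and 2.29% with both treatments. Gzmb lies on chromosome 14 (minus strand, 56258838 to 56262260 in GENCODE M21, build GRCm38), and its transcript end shares no 31-base word with another gene.

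**Figure D1:**
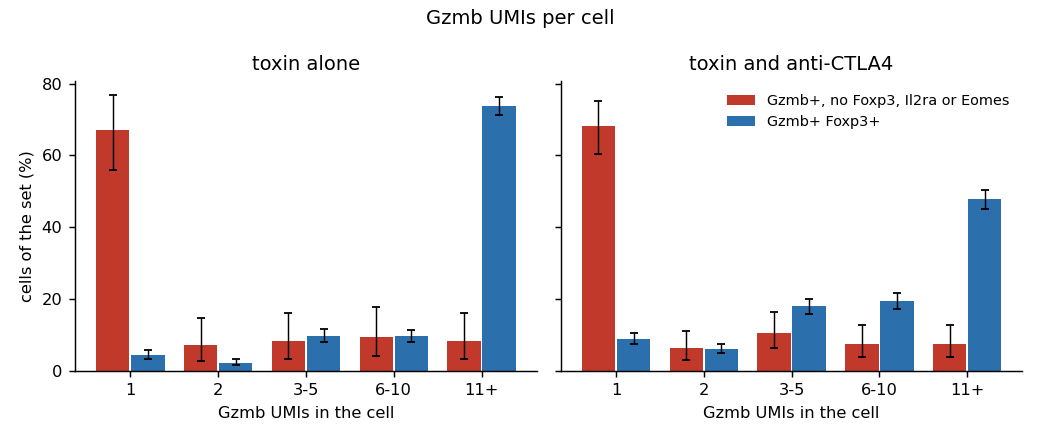
Share of cells (y axis, percent of the set) by the number of Gzmb UMIs in the cell (x axis), for Gzmb-positive Foxp3-negative cells (red) and Gzmb-positive Foxp3-positive cells (blue) in each toxin library; bars are shares and lines exact 95% binomial intervals. A single UMI was found in 67.1% and 68.1% of the Foxp3-negative cells, against 4.44% and 8.83% of the Foxp3-positive cells.

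Cells of this kind were scarce without toxin. The same rule took 6 of 7955 naive cells (0.0754%, 0.0277 to 0.164), 0 of 1099 cells of untreated tumor-bearing mice, which allows a share of up to 0.273% (3 cells of the total; the exact 95% upper bound is 0.335%), and 1 of 4566 cells with antibody alone (0.0219%, 0.000554 to 0.122). With toxin they made up 3.89% (3.12 to 4.79) and with both treatments 3.68% (3.14 to 4.29) of all cells. The share with both treatments lay within the interval of the share with toxin alone. Since the rule was drawn up with these data in view, this contrast is a description.

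The share can be set beside a background, because free RNA in a droplet gives UMIs to cells that do not express a gene. Among cells at 0 UMIs of Foxp3, Il2ra and Eomes, and after thinning each cell to 1000 UMIs, Gzmb was found in 5.05% of 693 cells with toxin alone and 6.66% of 1456 with both treatments; without thinning it was 11.9% and 9.29%. In naive-like cells of this gate, those with UMIs of at least 3 of 9 naive T cell genes and none of Mki67 after thinning, the thinned share was 3.59% (1.93 to 6.06) with toxin alone and 5.16% (3.83 to 6.78) with both treatments, at median depths of 3356 and 1854 UMIs. In the remaining cells of the gate it was 6.65% (4.21 to 9.89) and 9.33% (6.98 to 12.2), at 4298 and 2089 UMIs. The intervals of these 2 kinds of cells overlapped with toxin alone and did not with both treatments. The share with 2 or more Gzmb UMIs, without thinning, was 0.829% of naive-like and 7.25% of the remaining cells with toxin alone, and 0.967% and 6.29% with both treatments. Cells with B cell or myeloid markers that would serve as a stricter background numbered only 17 and 13 in this gate, with 1 and 0 Gzmb-positive cells.

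Set against Gzmb-negative cells, the Gzmb-positive Foxp3-negative cells had higher levels of Cxcr6, Itgae, Klrg1, the Ifitm genes and most migration genes measured, and lower levels of Tcf7. Of 5998 genes measured, 39 were higher by 2-fold or more in both libraries (0.65%) and 13 were lower (0.217%). With the rule applied after thinning the counts were 89 and 151. That setting took 274 and 320 cells, of which only 35 and 97 had 0 UMIs of Foxp3, Il2ra and Eomes before thinning. Most of its cells were therefore not cells of the set described here. With 2 or more Gzmb UMIs required the counts were 195 and 311. With exactly 1 Gzmb UMI, a setting added after seeing the data, they were 4 and 8, and 3 of the 4 were among the 39. A gene was measured when its mean over both sets was at least 25 CPM with at least 30 UMIs, in both libraries. The genes of largest difference were Ifitm1, Ifitm2 and Ifitm3, membrane proteins that restrict virus entry, Klrg1, a receptor of late effector cells, Itgae, the integrin CD103 of tissue-resident cells, Cxcr6 and Ccr2, chemokine receptors, Lgals3, Lgals1, S100a6 and Capg, and the cell cycle inhibitor Cdkn2a. Lgals3 UMIs came from 23 and 36 cells and Cdkn2a UMIs from 13 and 9. In cells with exactly 1 Gzmb UMI some log2 ratios were below 0. These were Ifitm2 (-0.43) and Lgals3 (-2.06) with toxin alone and Cdkn2a (-0.10) with both treatments.

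Cxcr6 stood at 222 CPM in Gzmb-positive Foxp3-negative cells with toxin alone against 35.9 in Gzmb-negative cells, and at 181 against 18.7 with both treatments. The ratios were 6.18 (4.71 to 8.13) and 9.66 (6.71 to 13.9). With the rule applied after thinning, which took mostly other cells, the log2 ratio with toxin alone was -0.079. Its UMIs came from 21 of 85 and 22 of 160 cells, and after thinning 13.4% (6.89 to 22.7) and 10.5% (5.99 to 16.7) of these cells had one, against 1.96% and 1.07% of Gzmb-negative cells and 0.344% and 0.303% of Foxp3-positive cells. Without thinning the same shares were 24.7% and 13.8%, 6.22% and 1.60%, and 1.28% and 1.86%. Cxcr6 was thus found in a minority of the Gzmb-positive Foxp3-negative cells and in few Foxp3-positive ones. The gene lies on chromosome 9 (123806475 to 123811760, plus strand) and Ifitm1 on chromosome 7 (140967221 to 140969825, plus strand).

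Ifitm1 stood at 1997 CPM against 91.0 with toxin alone and 584 against 34.0 with both treatments. The ratios were 21.9 (19.2 to 25.2) and 17.2 (13.6 to 21.8), but the UMIs came from 22 cells in the first library and 9 in the second, where 1 cell held 63 of 210 UMIs. Ifitm2, next to it on chromosome 7, was 7.33 (6.64 to 8.10) and 11.2 (9.74 to 12.9) times higher, and Ifitm3 8.97 (7.93 to 10.2) and 6.997 (5.87 to 8.33) times. Of the 31-base words in the last 300 bases of their transcripts, 32.6% of those of Ifitm2, 9.63% of Ifitm3 and 2.96% of Ifitm1 also occur in another gene's end, so the level of Ifitm2 is the least certain of the 3.

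Klrg1 was at 51.7 CPM against 2.39 with toxin alone and 88.9 against 1.84 with both treatments, in 8 and 14 cells. One cell held 37.0% of its UMIs in the first library and 37.5% in the second. Itgae was at 68.9 against 5.82 and 100.03 against 5.82 CPM, in 16 and 21 cells. Both genes were higher still in Foxp3-positive cells, at 259 and 163 CPM for Klrg1 and 304 and 257 CPM for Itgae.

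S100a6, a calcium-binding protein of activated and memory T cells, was detected in 63 of 85 and 78 of 160 cells. It stood at 3717 CPM against 1355 with toxin alone and 4526 against 662 with both treatments, ratios of 2.74 (2.60 to 2.90) and 6.84 (6.41 to 7.30). After thinning it was found in 63.4% (52.0 to 73.8) and 44.1% (35.8 to 52.6) of Gzmb-positive Foxp3-negative cells, in 34.5% and 15.2% of Gzmb-negative cells and in 86.8% and 80.4% of Foxp3-positive cells. Lgals1, a galectin, was at 5310 against 1751 and 4501 against 1252 CPM.

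Among the 12 lowest genes were T cell genes and genes of other cells. Penk, proenkephalin, was at 19.1 against 70.1 and 8.34 against 84.6 CPM, from 10 and 3 UMIs. Tcf7, the transcription factor TCF1 of naive and memory T cells, was at 569 CPM against 1040 with toxin alone and 492 against 946 with both treatments, 1.83 (1.62 to 2.07) and 1.92 (1.65 to 2.25) times lower. Sox4, Dennd2d, Rgs10 and Zfp36l1 were between 1.52 and 3.18 times lower, under the 2-fold limit in at least 1 library. Lyz2, H2-Aa, H2-Eb1, H2-Ab1, genes of myeloid cells and of antigen presentation by MHC class II, were lower by wider margins, as was Cd74 with both treatments (97.3 against 484 CPM), but in Gzmb-negative cells the UMIs of Lyz2 came from 8 and 10 cells and those of H2-Aa from 17 and 22. With 17 and 13 Gzmb-negative cells that carried narrower B cell, myeloid or plasma cell markers left out, together with 2 and 0 Gzmb-positive cells, Cd74 was 1.83 times higher with toxin alone and 1.07 times lower with both treatments. With toxin alone H2-Ab1 was then 10.03 (3.02 to 38.1), H2-Eb1 16.7 (1.34 to 877), H2-Aa 5.57 (0.404 to 76.8) and Lyz2 1.11 (0.0236 to 9.96) times higher. These ratios rest on few UMIs, at levels of 2.06 to 18.5 CPM against 0.369 to 1.85 CPM in Gzmb-negative cells. The intervals of H2-Aa and Lyz2 included 1. Tcf7 stayed 1.83 and 1.98 times lower. Without these cells 51 genes were at least 2-fold higher and 7 lower, an alternative chosen after seeing the data.

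**Figure D2:**
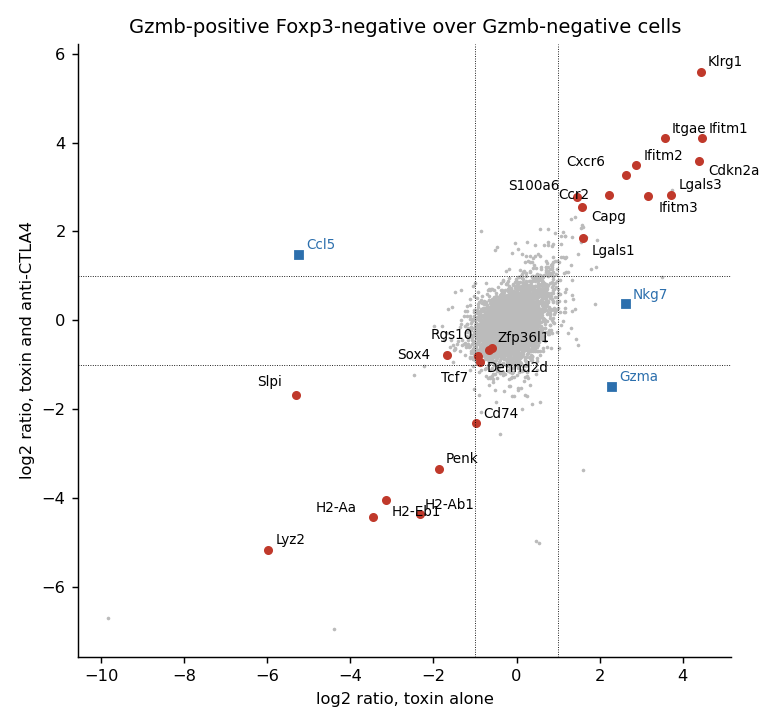
Log2 ratio of CPM in Gzmb-positive Foxp3-negative over Gzmb-negative cells with toxin alone (x axis) and with toxin and anti-CTLA4 (y axis), for each measured gene (grey points); red points are the 12 highest and 12 lowest genes by their interval bounds, blue squares are Gzma, Nkg7 and Ccl5, and dotted lines mark 2-fold. Klrg1, Ifitm1 and Itgae lie at the upper right, Gzma and Ccl5 in opposite quadrants.

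The granule genes that named these cells did not behave alike. Nkg7 was at 592 CPM against 95.4 in Gzmb-negative cells with toxin alone, a ratio of 6.20 (5.26 to 7.32). With both treatments it was at 881 against 686 CPM, a ratio of 1.28 (1.14 to 1.45), and after thinning 41.3% (33.1 to 49.8) of Gzmb-positive Foxp3-negative and 36.6% (33.9 to 39.2) of Gzmb-negative cells had a UMI. Gzma was at 278 against 56.1 CPM with toxin alone and at 52.8 against 149 with both treatments, 4.95 (3.93 to 6.23) times higher and 2.81 (1.78 to 4.72) times lower. Its UMIs came from 16 and 10 cells, and with toxin alone 1 cell held 37.2% of them. Without that cell the level was 179 CPM. Without thinning 18.8% and 6.25% of Gzmb-positive Foxp3-negative cells had a Gzma UMI, against 8.29% and 7.74% of Gzmb-negative cells. Ccl5, a chemokine of effector T cells, was at 1.91 against 72.9 CPM with toxin alone, a single UMI, and at 661 against 237 with both treatments, where 21 cells carried it. Without thinning 1.18% and 13.1% of Gzmb-positive Foxp3-negative cells had a Ccl5 UMI, against 2.55% and 7.42% of Gzmb-negative cells. Among the Gzmb-negative cells 1 cell held 28.6% of the Ccl5 UMIs with toxin alone and 34.2% with both treatments. Prf1, perforin, was at 11.5 against 4.79 and 33.3 against 38.3 CPM, from 4 and 8 cells, and Gzmk at 0 UMIs and 27 UMIs. UMIs of both Gzma and Nkg7 were found in the same cell in 9 of 85 cells with toxin alone (10.6%; 6 of 82 after thinning) and in 7 of 160 with both treatments (4.38%; 5 of 143). Most of the cells thus did not show Gzmb, Gzma and Nkg7 together at this depth. The cells are named here by the rule.

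Of the gene lists, that of migration and cytoskeleton genes had the most members on the higher side. Of its 19 measured members 13 were at least 1.5-fold higher and 0 lower. The median log2 ratio of the 19 was 0.92 with toxin alone and 1.00 with both treatments; over all genes measured the medians were -0.09 and -0.06, and 131 genes (2.18%) were 1.5-fold higher and 133 (2.22%) lower. Besides S100a6 and Lgals1 these were S100a4, at 1155 against 434 and 1892 against 376 CPM, and Vim, vimentin, at 2886 against 1282 and 2465 against 666 CPM. S100a4 shares 56.0% of its end words with an unnamed gene model. The genes of the list were chosen with earlier results of these data known.

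Among 12 measured Th1 genes 4 were higher, Ifng, Il18r1, Id2 and Cxcr6, and 0 lower, with median log2 ratios of 0.62 and 0.94. Id2, a transcriptional inhibitor needed for effector and resident T cells, was at 398 against 183 CPM with toxin alone and 453 against 169 with both treatments. Il18r1, the interleukin 18 receptor, was at 147 against 38.3 and 106 against 30.3 CPM. Ifng, the defining Th1 cytokine, was at 70.8 against 22.2 and 66.7 against 18.1 CPM, but from 10 and 13 cells, with 45.9% of the UMIs in 1 cell with toxin alone. Among cells of 2000 to 6000 UMIs the log2 ratio of Ifng with toxin alone was -0.59. Tbx21, the Th1 transcription factor T-bet, was at 38.3 against 17.8 and 30.6 against 7.05 CPM, from 12 and 11 cells.

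Genes of DNA replication were higher in Gzmb-positive Foxp3-negative cells, 11 of 27 measured S phase genes and 0 lower, with medians of 0.63 and 0.58. Rrm2, a subunit of ribonucleotide reductase, was at 561 against 268 CPM with toxin alone and 275 against 83.6 with both treatments. Of 27 G2M genes 3 were higher and 0 lower, Top2a, Birc5 and Kif23. After thinning, cells with at least 2 G2M genes made up 43.9% (33.0 to 55.3) of Gzmb-positive Foxp3-negative cells with toxin alone against 21.8% (18.6 to 25.3) of Gzmb-negative cells, and 26.6% (19.5 to 34.6) against 17.8% (15.8 to 20.0) with both treatments. Without thinning the shares were 65.9% against 52.2% and 40.6% against 34.2%. In Foxp3-positive cells the thinned shares were higher, 53.8% and 59.5%.

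Of 12 measured Treg genes without the gating genes 4 were higher, Ctla4, Capg, Itgae and Entpd1, and 0 lower. Ctla4, an inhibitory receptor and the target of the antibody, was at 255 against 152 CPM with toxin alone and 870 against 211 with both treatments, 1.68 (1.37 to 2.04) and 4.13 (3.60 to 4.72) times higher. Of 16 naive and homing genes 3 were lower, Tcf7, Txk and Actn1, and 1 was higher, Il7r, the interleukin 7 receptor, at 239 against 104 and 395 against 185 CPM. Of 20 type I interferon genes 3 were lower, Ifit1, Ifit3 and Irf7, and of 15 follicular helper genes 2, Bcl6 and Tox2; in each list 0 were higher. Ccr7, the lymph node homing receptor, was at 149 against 242 and 178 against 224 CPM and did not reach 1.5-fold with both treatments. No gene of glycolysis, cholesterol synthesis, respiration or ribosome biogenesis passed 1.5-fold in both libraries. On the other lists the higher and lower genes numbered 3 and 0 of 12 for interleukin 2, 3 and 0 of 16 for interferon gamma, 2 and 0 of 8 inhibitory receptors, 1 and 0 of 13 granule and chemokine genes, 1 and 0 of 4 killer receptors, 1 and 0 of 5 cytokines, 1 and 1 of 15 T cell receptor response genes, 0 and 1 of 9 dissociation stress genes and 0 and 0 of 2 Th2 and Th17 genes.

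**Figure D3:**
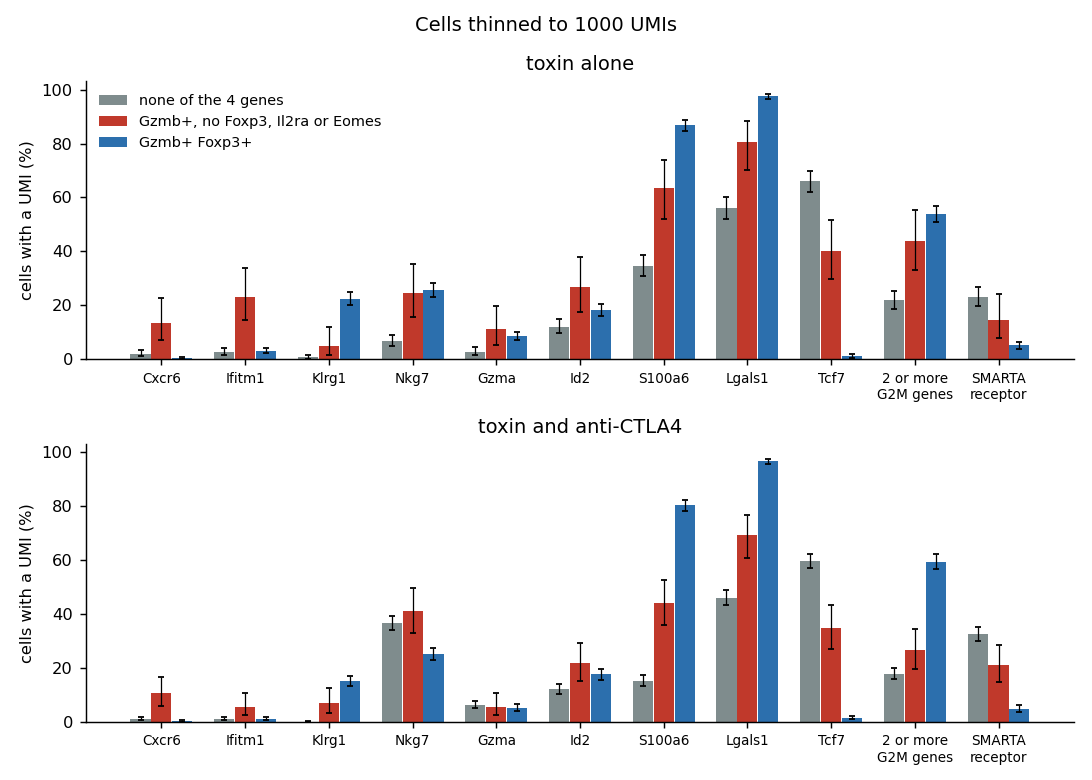
Share of cells with a UMI after thinning to 1000 UMIs (y axis, percent) for single genes, for cells with 2 or more G2M genes and for cells with a UMI of the SMARTA receptor variable genes (x axis), in Gzmb-negative (grey), Gzmb-positive Foxp3-negative (red) and Gzmb-positive Foxp3-positive cells (blue), with exact 95% binomial intervals. Cxcr6 and Ifitm1 are highest in the red bars, S100a6 lies between grey and blue, and Tcf7 falls from grey to red to blue.

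Many of these differences were larger in the cells with 2 or more Gzmb UMIs. The 28 and 51 cells of this kind, compared with the same Gzmb-negative cells, had 415 of 5812 measured genes at least 1.5-fold higher (7.14%) and 804 lower (13.8%), while the 57 and 109 cells with exactly 1 Gzmb UMI had 30 of 5970 higher (0.503%) and 47 lower (0.787%). In cells with 2 or more Gzmb UMIs 22 of 29 G2M genes were higher and 0 lower, 19 of 30 S phase genes were higher and 0 lower, and 15 of 19 migration genes were higher and 1 lower. In the same cells 8 of 16 naive and homing genes and 9 of 13 follicular helper genes were lower, and 1 of each was higher. In cells with 1 Gzmb UMI, 0 of 26 G2M, 0 of 24 S phase and 0 of 17 naive genes differed by 1.5-fold in both libraries, and 1 of 19 migration genes did, Ccr2. Of 10 measured Th1 genes 3 were higher in them, Il18r1, Bhlhe40 and Cxcr6, and 0 lower. With 2 or more Gzmb UMIs 8 of 13 Th1 genes were higher and 1 lower. Cxcr6 and Ifitm1 were an exception with both treatments: they stood at 185 and 641 CPM with 1 Gzmb UMI and at 173 and 479 with 2 or more. A cell is more likely to show 2 UMIs of a gene when it is sequenced more deeply. The median depth was 5812 UMIs at 2 or more Gzmb UMIs against 3963 at 1 with toxin alone, and 2099 against 1758 with both treatments. The sets with 2 or more were also smaller. In them 1 UMI stood for 5.31 and 7.85 CPM, against 2.99 and 4.30 CPM with 1 Gzmb UMI. Counting error alone can thus bring more genes past 1.5-fold in the smaller sets. The parts of depth and of set size in this contrast were not tested.

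Tcf7 was lower in cells with more Gzmb UMIs. With toxin alone its level was 1040 CPM in Gzmb-negative cells, 841 in cells with 1 Gzmb UMI, 85.02 in cells with 2 or more and 11.4 in Foxp3-positive cells. With both treatments the same levels were 946, 744, 31.4 and 13.8 CPM. In Tcf7 level the cells with a single Gzmb UMI lay near the Gzmb-negative cells, and those with 2 or more lay nearer to the Foxp3-positive cells. This order was not shared by every gene, among them Cxcr6.

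S100a6 ran the other way, at 1355, 1377, 7869 and 5329 CPM with toxin alone and 662, 1828, 9448 and 4149 with both treatments, in the same order of sets. Nkg7 was at 95.4, 150, 1376 and 350 CPM with toxin alone and at 686, 766, 1091 and 358 with both treatments. The cells with 2 or more Gzmb UMIs had the highest level of both genes in each library.

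**Figure D4:**
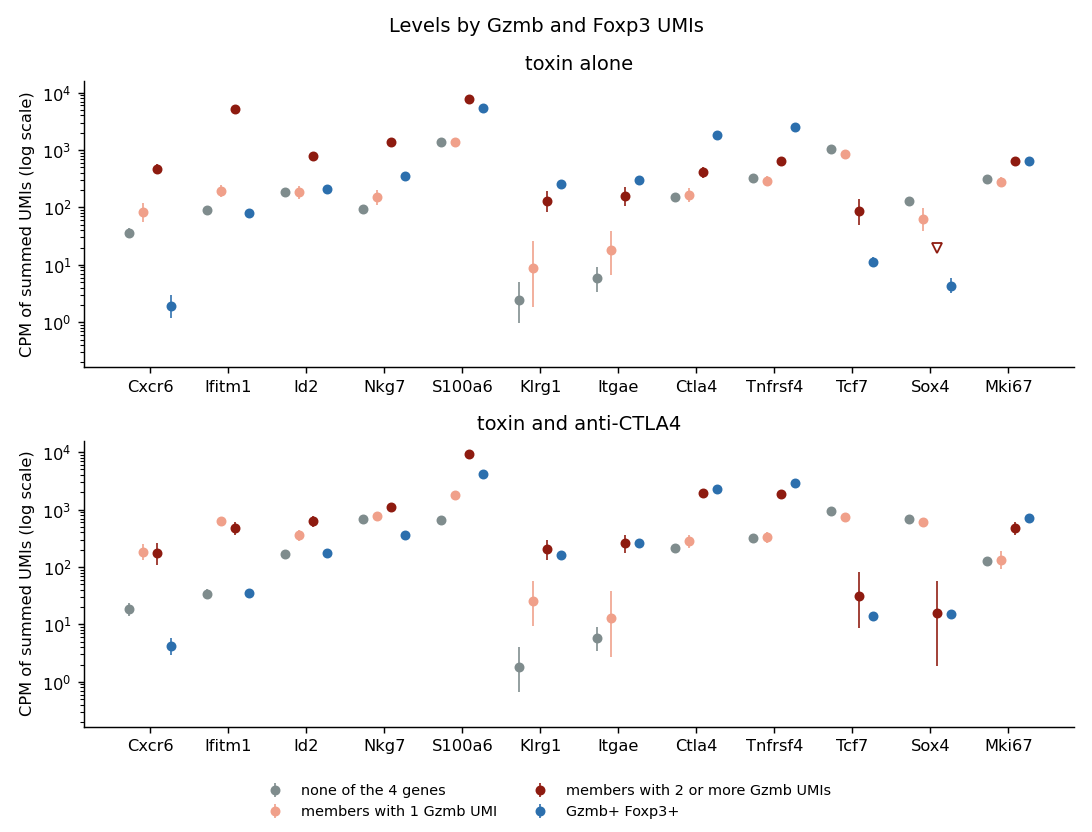
Level in CPM of summed UMIs (y axis, log scale) of 12 genes in Gzmb-negative cells (grey), cells with 1 Gzmb UMI (light red) and with 2 or more (dark red), and Gzmb-positive Foxp3-positive cells (blue), for each toxin library; lines are exact 95% Poisson intervals and open triangles mark the upper bound where a gene had 0 UMIs. Tcf7 falls to 85.02 and 31.4 CPM in the dark red points, and Cxcr6 is low in blue.

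The Gzmb-positive Foxp3-negative cells were also a mixture of unlike cells. They were split, after their values had been seen and so without a test, by the genes above. In each library 24 cells had a UMI of Cxcr6 or Ifitm1, 28.2% of the set with toxin alone and 15.0% with both treatments. A further 23 and 43 cells had neither gene and at least 2 Ctla4 UMIs, and 38 and 93 cells had neither. Only 1 cell in each library had both a UMI of Cxcr6 or Ifitm1 and 2 Ctla4 UMIs.

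The cells with Cxcr6 or Ifitm1 had the highest levels of Id2, Il18r1, Nkg7 and Tbx21 among the 3 kinds, but not of Cxcr3, a chemokine receptor of Th1 cells. Id2 was at 1030 CPM in them with toxin alone against 137 in the Ctla4 cells and 102 in the remaining cells, and at 1708 against 174 and 187 with both treatments. Il18r1 was at 364, 8.04 and 72.1 CPM and at 423, 73.2 and 16.1, and Nkg7 at 1585, 233 and 97.6 CPM and at 2663, 330 and 594. Tbx21 was at 111, 0 and 8.48 CPM and at 94.0, 36.6 and 5.35, from 20 and 11 UMIs over the 3 kinds. With both treatments 1 UMI stood for 15.7, 9.15 and 5.35 CPM, so that order of Tbx21 rests on few UMIs. Cxcr3 was at 259, 507 and 267 CPM with toxin alone and 204, 659 and 134 with both treatments, highest in the Ctla4 cells. Gzmb-negative cells of the same gate that had a UMI of Cxcr6 or Ifitm1, 49 and 39 cells, also had high Id2, at 894 and 1022 CPM, but less Nkg7, at 285 and 897 CPM.

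The cells with at least 2 Ctla4 UMIs had, besides the gene that chose them, the highest levels of Tnfrsf4 and Klrg1 among the 3 kinds. Tnfrsf4, the receptor OX40, was at 724 CPM with toxin alone against 352 in cells with Cxcr6 or Ifitm1 and 293 in the remaining cells, and at 2087 against 298 and 375 with both treatments. Klrg1 was at 193, 0 and 12.7 CPM and at 229, 62.7 and 16.1, in the same order. Capg, an actin-capping protein on the Treg list, was at 973, 456 and 157 CPM and at 1712, 1112 and 316, but after thinning it was found in 31.8% of the Ctla4 cells with toxin alone against 45.8% of those with Cxcr6 or Ifitm1. The corresponding Foxp3-positive levels were 2477 and 2904 CPM for Tnfrsf4. These cells had 0 Foxp3 UMIs by the rule, at a median depth of 4919 UMIs with toxin alone and 2088 with both treatments, where a transcript can be missed. In the remaining cells Tcf7 was at 763 and 798 CPM against 1040 and 946 in Gzmb-negative cells, and Sox4 at 50.9 and 701 against 128 and 689. Of these cells, 37 of 38 and 82 of 93 had a single Gzmb UMI.

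The kinds of cells were also counted within each library. Among cells with 2 or more Gzmb UMIs, 18 of 28 had a UMI of Cxcr6 or Ifitm1 with toxin alone and 9 of 51 with both treatments, while 9 and 31 had at least 2 Ctla4 UMIs and neither gene. Of the cells with Cxcr6 or Ifitm1, 18 of 24 carried transcripts of either variable gene taken here to mark the SMARTA receptor, Trav14d-3-dv8 or Trbv13-1, with toxin alone, and 3 of 24 with both treatments. Their median depths were 5558 and 1967 UMIs, and after thinning the shares were 4 of 24 (16.7%, 4.74 to 37.4) and 1 of 23 (4.35%, 0.110 to 21.9), with intervals that overlapped. Without thinning, 10 of 23 Ctla4 cells and 17 of 38 remaining cells carried such transcripts with toxin alone, at median depths of 4919 and 3910 UMIs. With both treatments 6 of 43 and 51 of 93 did, at 2088 and 1749 UMIs. The part of depth in these shares was not tested. The unthinned share in all Gzmb-positive Foxp3-negative cells was 52.9% and 37.5%, against 57.1% and 49.6% of Gzmb-negative and 20.7% and 15.9% of Foxp3-positive cells. After thinning the shares were 14.6% and 21.0%, 23.1% and 32.5%, and 5.07% and 4.77%. A share below 100% can come from missed transcripts, so a cell without such a UMI is not shown to lack the receptor, and of the end words of Trav14d-3-dv8 73.7% also occur in other Trav14 genes. Among cells with such a UMI, Ifitm1 was lower in Gzmb-positive Foxp3-negative than in Gzmb-negative cells with both treatments, with a log2 ratio of -1.79. The Ifitm1 UMIs of the former came from at most 3 cells, and only 17 Gzmb-negative cells of that library had Ifitm1 at all.

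**Figure D5:**
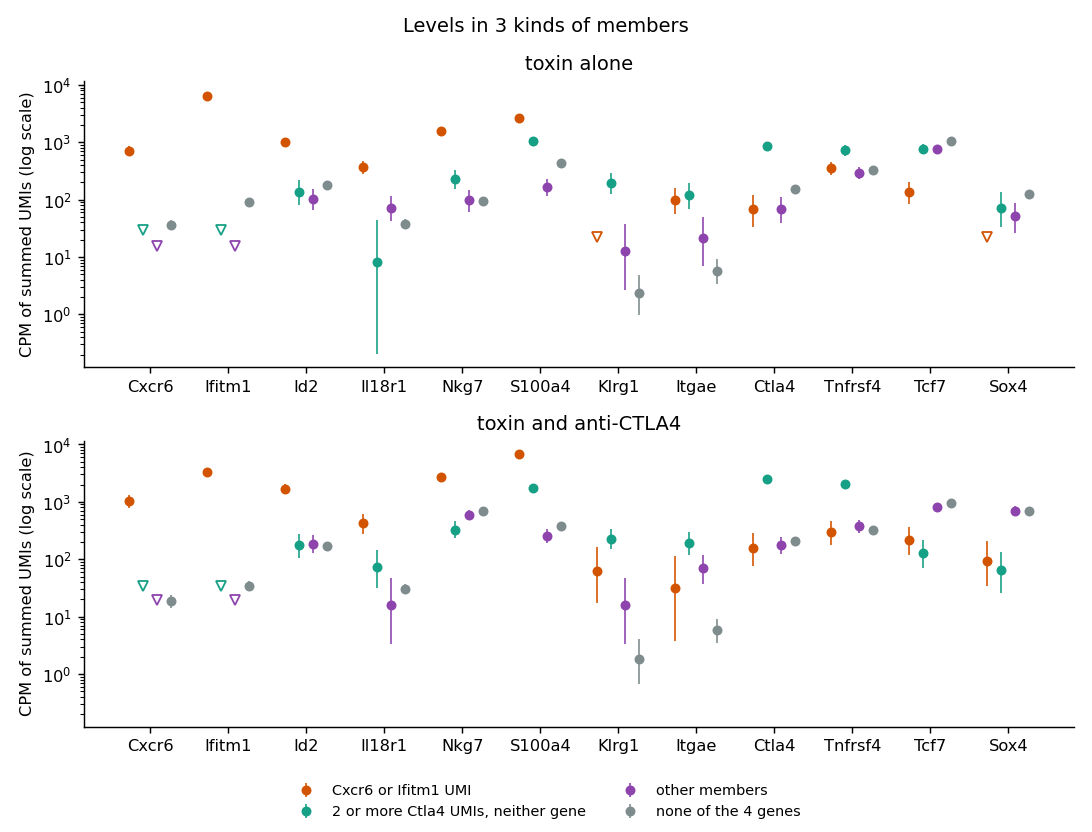
Level in CPM of summed UMIs (y axis, log scale) of 12 genes in 3 kinds of Gzmb-positive Foxp3-negative cells and in Gzmb-negative cells (grey), for each toxin library: cells with a Cxcr6 or Ifitm1 UMI (orange), cells with neither and at least 2 Ctla4 UMIs (green) and the remaining cells (purple); lines are exact 95% Poisson intervals and open triangles upper bounds at 0 UMIs. Id2, Nkg7 and S100a4 are highest in orange, Ctla4 and Tnfrsf4 in green; Cxcr6, Ifitm1 and Ctla4 chose the kinds and are shown as a description.

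Against Gzmb-positive Foxp3-positive cells, the Gzmb-positive Foxp3-negative cells had higher levels of Cxcr6, Tcf7 and most follicular helper genes measured, and lower levels of most Treg and sterol genes measured. Of 5885 genes measured, 170 were higher by 2-fold or more (2.89%) and 80 lower (1.36%) in both libraries; at 1.5-fold there were 431 (7.32%) and 277 (4.71%). The Foxp3-positive cells were deeper, with a median of 6555 and 4849 UMIs against 4287 and 1839, and the part of depth was not tested. With the rule applied after thinning, 2 genes were higher and 0 lower. Of the 274 and 320 cells it then took, only 35 and 97 had 0 UMIs of Foxp3, Il2ra and Eomes before thinning. These counts therefore do not show the part of depth. With TMM scaling 134 genes were higher and 114 lower.

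The 12 highest genes were Dapl1, Tnfsf8, Cxcr6, Tcf7, Tbc1d4, Id3, Evl, Ifitm1, Nsg2, Ms4a4c, Aff3 and Asap1. Tcf7 was at 569 against 11.4 CPM with toxin alone and 492 against 13.8 with both treatments, 50.1 (40.3 to 62.6) and 35.6 (28.1 to 45.3) times higher. Cxcr6 was 114 (70.8 to 194) and 43.6 (28.6 to 67.4) times higher, from 222 against 1.94 and 181 against 4.15 CPM. Tnfsf8, the CD30 ligand, was at 289 against 3.30 and 211 against 3.80 CPM, and Id3, a partner-blocking factor of naive and follicular helper cells, at 295 against 12.8 and 283 against 13.2. In cells with 2 or more Gzmb UMIs Tcf7 was at 85.02 and 31.4 CPM and Tnfsf8 at 42.5 and 23.5, against 841 and 744 for Tcf7 and 428 and 314 for Tnfsf8 in cells with 1. Cxcr6 was at 468 and 173 CPM with 2 or more and at 83.8 and 185 with 1.

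Of 12 measured follicular helper genes 8 were at least 1.5-fold higher and 2 lower, with median log2 ratios of 1.52 and 1.98; over all genes measured the medians were 0.02 and 0.08. Cxcr5, the receptor for the B cell follicle, was at 46.0 against 5.24 and 63.9 against 13.2 CPM, and Pdcd1, the receptor PD-1, at 163 against 9.70 and 94.5 against 15.3. Cd40lg, the CD40 ligand, was 11.9 (8.97 to 15.6) and 9.21 (5.29 to 15.5) times higher. Against Gzmb-negative cells, by contrast, 0 of 15 measured follicular helper genes were at least 1.5-fold higher and 2 were lower. In cells with 2 or more Gzmb UMIs, 1 of 13 was higher and 9 were lower than in Gzmb-negative cells. Against Foxp3-positive cells 6 of 16 naive genes were higher and 0 lower. Of 11 granule and chemokine genes 4 were higher, Nkg7, Ctsw, Serpinb6b and Ctsd, and 0 lower; Ctsw, a cathepsin of killer lymphocytes, was at 124 against 7.67 and 128 against 10.4 CPM. Of 9 measured dissociation stress genes 5 were higher, among them Fos, Jun and Fosb, and 0 lower. Higher and lower genes numbered 3 and 2 of 20 on the migration list, 2 and 1 of 3 killer receptors, 3 and 3 of 13 T cell receptor response genes, 4 and 2 of 8 inhibitory receptors, 2 and 5 of 12 interleukin 2 genes, 3 and 0 of 17 type I interferon genes and 2 and 0 of 5 cytokines. None was higher and 2 of 15 glycolysis, 1 of 24 respiration and 3 of 18 ribosome biogenesis genes were lower, and 1 of 4 Th2 and Th17 genes passed each way.

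The 12 lowest genes were Penk, Fabp5, Serpina3g, Tnfrsf4, Mt1, Gbp3, Odc1, Gbp5, Icos, Ctla4, Arl5a and Ermn. Ctla4 was at 255 against 1855 CPM with toxin alone and 870 against 2306 with both treatments, 7.28 (6.14 to 8.70) and 2.65 (2.37 to 2.97) times lower. Tnfrsf4 was 5.99 (5.24 to 6.88) and 3.30 (2.95 to 3.69) times lower, and Icos, a costimulatory receptor, 3.22 (2.84 to 3.66) and 2.72 (2.37 to 3.14) times. Fabp5, a fatty acid binding protein, was at 226 against 889 and 195 against 979 CPM. Of 13 measured Treg genes 8 were at least 1.5-fold lower and 2 higher, Nrp1 and Lag3. Of 17 interferon gamma genes 7 were lower and 0 higher, of 16 cholesterol synthesis genes 9 and 0, and of 30 G2M genes 15 and 0, while of 30 S phase genes 0 passed 1.5-fold either way. Mki67, a proliferation marker, was at 406 against 649 and 253 against 711 CPM.

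Cd4 itself was 2.76 (2.40 to 3.16) and 2.51 (2.10 to 2.98) times higher than in Foxp3-positive cells, at 454 against 165 CPM with toxin alone and 400 against 159 with both treatments. Against Gzmb-negative cells, at 565 and 417 CPM, it was near 1-fold. With the rule applied after thinning, the log2 ratio of Cd4 against Foxp3-positive cells was -0.064 and -0.041. Most cells of that setting had UMIs of Foxp3, Il2ra or Eomes before thinning.

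Between the libraries, 372 of 5548 measured genes were at least 2-fold higher in Gzmb-positive Foxp3-negative cells with both treatments than with toxin alone (6.71%) and 196 were lower by as much (3.53%). With TMM scaling the counts were 255 and 282. The library and the treatment cannot be told apart, so the ratio, levels or UMIs in Gzmb-negative cells are given beside each. Ctla4 was at 870 against 255 CPM, 3.42 (2.78 to 4.22) times higher, against 1.39 (1.23 to 1.57) times in Gzmb-negative cells. Sox4 was 9.95 (6.27 to 16.6) times higher against 5.38 (4.82 to 6.02), Tubb2b 11.2 against 7.45, Wdr89 4.70 against 2.52, Neurl3 7.26 against 4.46, Dusp1 4.12 against 4.53 and Tm6sf1 5.51 against 7.003. With toxin alone Tubb2b had 4 UMIs in the Gzmb-positive Foxp3-negative cells, Neurl3 7 and Tm6sf1 10, so the size of these ratios is uncertain. Ccl5 was at 661 against 1.91 CPM, from 238 UMIs against 1, where Gzmb-negative cells had 237 against 72.9. All 8 named genes that were higher in Gzmb-positive Foxp3-negative cells were also higher in Gzmb-negative cells.

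Of the lower genes, Ifitm1 was not among the 8 named but stood at 584 against 1997 CPM, 3.42 (2.95 to 3.99) times lower, and in Gzmb-negative cells at 34.0 against 91.0. Hist1h2ap was 11.4 times lower and Eno1 6.38 times, at 19.5 against 222 and 86.1 against 550 CPM, and Gzmb-negative cells had 11.3 against 108 and 75.7 against 384. All the end words of Hist1h2ap occur in other histone genes, so its reads cannot be assigned to it alone. Polr2l was at 1 UMI against 39, and in Gzmb-negative cells at 68 against 194 UMIs. Ccl1 was at 0 against 39 UMIs, and 2 cells carried it, 1 of them 69.2%. Gzmb-negative cells had 3 against 7 UMIs of Ccl1. Mzb1, Jchain, Derl3 and Mef2c were at 0 UMIs with both treatments, but with toxin alone 99.7% of Mzb1, 99.8% of Jchain, 93.0% of Derl3 and 100% of Mef2c UMIs came from 1 cell. That cell had 34050 UMIs, of which 8846 were of Igkc, an immunoglobulin light chain, with 1 Gzmb UMI and 0 of Cd4. It bears plasma cell markers, and without it and 1 other cell with plasma cell markers the level of Mzb1 with toxin alone was 2.06 CPM. Leaving out those 2 cells gave 314 genes higher and 201 lower by 2-fold or more. In Gzmb-negative cells Mzb1 was at 280 against 1323 UMIs, Jchain at 858 against 1758, Derl3 at 29 against 87 and Mef2c at 38 against 95.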

How the data were processed

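Each of the 5 libraries was deposited as a table of raw UMI counts (genes by cells), with totals of 3825958 to 27967273. The authors used bcl2fastq 2.20, Cell Ranger 6.0.0, R 4.1.1 and Seurat 4.0.4 with mm10, per the submitters' processing notes, on 3′ libraries, per the labels' protocols. Here every deposited cell was kept and doublets were not called. UMIs were summed per cell set and scaled to CPM. Shares used cells thinned at random to 1000 UMIs (seed 7), which left out 3 and 17 Gzmb-positive Foxp3-negative cells. Where 1 set had 0 UMIs, 3 UMIs over the set stood in for a fold. Annotation was GENCODE M21 (GRCm38), matching 11809 of the 11924 listed names. The interval and counting steps were run on simulated Poisson counts. That is the model the intervals assume, so the run checks the code and does not cover genes carried by few cells.

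The genes named were the 12 highest and 12 lowest of each cell comparison by the interval bound nearest to 1, the 8 highest and lowest between libraries, leading members of the lists described and 28 genes looked at throughout. A few genes outside the rule, such as Trav14d-3-dv8, Cd8a and the marker genes, were named for their role. The members and lists were chosen with earlier results of these data known. Alternatives were other gates, thinning, scaling (TMM), filters and left-out cells. A planned background of cells with B cell or myeloid markers took 1348 and 1611 cells, most of them with Foxp3 UMIs (1086 and 1198), so a narrower one was added after seeing the data. Python 3.11.15, numpy 2.4.6, scipy 1.17.1, pandas 2.3.3, R 4.3.3 and edgeR 4.0.16 (TMM factors only) were used. The result of 1 list against Foxp3-positive cells is not reported here.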

Additional observations from a re-analysis of the deposited data

Results flagged for a closer look

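The direction against Gzmb-negative cells differed between the toxin libraries, beyond the counting intervals and with no test of the difference, for Gzma (4.95 with toxin alone, 0.355 with both treatments), Ccl5 (0.0263 and 2.78) and Icos (0.798 and 1.88). Against Gzmb-positive Foxp3-positive cells it differed for Gzma (1.23 and 0.586), Ccl5 (0.0255 and 7.004), S100a6 (0.697 and 1.09) and Cd74 (1.22 and 0.394). Ccl5 with toxin alone rests on 1 UMI. In Gzmb-negative cells 1 cell held 28.6% of the Ccl5 UMIs with toxin alone and 34.2% with both treatments. With both treatments Gzma was found in 6.25% of Gzmb-positive Foxp3-negative and 7.74% of Gzmb-negative cells, without thinning. With toxin alone 61.2% of the Cd74 UMIs of Gzmb-positive Foxp3-negative cells were in 1 cell. Without cells carrying narrower B cell, myeloid or plasma cell markers the Cd74 ratio against Foxp3-positive cells with toxin alone was 0.555, and without 1 cell Gzma there was at 179 CPM against 225 in Foxp3-positive cells, so both were then below 1 in both libraries.

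In the naive library, which enters none of the comparisons, 6 cells passed the same rule. Each had 1 Gzmb UMI, and together they had 73 UMIs of Gzma, 52 of Nkg7 and 339 of Ccl5, with 1 of Cd4.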

How the results depend on the processing

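Counts of genes past 2-fold are given as higher and lower, against Gzmb-negative cells (39 and 13 as reported), against Foxp3-positive cells (170 and 80) and between libraries (372 and 196). With the rule applied after thinning they were 89 and 151, 2 and 0, and 45 and 25, in cells most of which had UMIs of Foxp3, Il2ra or Eomes before thinning. Sums of thinned cells gave 51 lower, 126 lower, and 131 and 55, and means of single cells gave 75 and 22 in the first comparison. With at least 2 Gzmb UMIs they were 195 and 311, 71 higher, and 115 and 108; with Foxp3 alone at 0, 84 and 62, 87 and 11, and 203 and 77. Cells of 2000 to 6000 UMIs gave 20 lower, 132 lower, and 148 and 84. Without cells positive for G2M genes they were 22 higher, 184 lower and 129 lower, and with receptor-positive cells alone 24 higher, 122 lower and 298 lower. Without cells that had markers of another type the second was 101 and 131 and the third 187 and 119. A minimum of 100 CPM gave 17 and 2, 42 and 28, and 115 and 62, and no minimum 64 and 88, and 396 and 182. Added after seeing the data, narrower marker cells left out gave 7 lower in the first, and exactly 1 Gzmb UMI 4 and 8, and 245 lower in the second. Other counts under these settings stayed within 1.5 times, but similar counts could hold different genes. Of the 39 genes higher against Gzmb-negative cells, 19 were among the 40 higher at 2000 to 6000 UMIs. Without the 5% of cells with most UMIs, 38 of the 39 were among the 50 higher. Of the 13 lower genes, 3 were among the 17 lower without cells that had markers of another type. TMM scaling moved no count by more than 1.5 times.

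The share of cells that passed the rule (3.89% and 3.68%) was 12.7% and 8.08% with the rule after thinning, 20.4% and 10.7% after thinning to 500 UMIs, 1.28% and 1.17% with at least 2 Gzmb UMIs, and 8.10% and 8.01% with Foxp3 alone at 0.

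Of the log2 ratios of named genes 1931 stayed within their counting interval, 1013 moved out of it and 148 had no value. A change of sign was marked only for genes counted as higher or lower at 2-fold in the reported comparison. Sign changes of other named genes, such as Cd74 with toxin alone, are within the first 2 numbers. Of the genes so counted, 28 ratios changed sign. With the rule after thinning these were Cxcr6 (-0.079) and Penk (0.47) against Gzmb-negative cells with toxin alone, and against Foxp3-positive cells Mt1 (0.64 and 0.12), Cd4 (-0.064 and -0.041) and, with both treatments, Fabp5 (0.044). With both treatments against Gzmb-negative cells, Slpi was 0.59 as a mean of cells, 1.89 with Foxp3 alone at 0, 0.43 at 2000 to 6000 UMIs, 5.95 without other-type markers, 0.78 without the 5% of cells with most UMIs and 3.81 without narrower markers. With Foxp3 alone at 0, Penk was 0.98 against Gzmb-negative and 0.0037 against Foxp3-positive cells, and Jchain 0.53 between libraries. Ifng with toxin alone was -0.59 at 2000 to 6000 UMIs and -0.053 without G2M cells. In receptor-positive cells H2-Eb1 was 1.33 and H2-Ab1 3.23 with toxin alone, and with both treatments H2-Aa was 0.88 and Ifitm1 -1.79, and -3.93 against Foxp3-positive cells. Without narrower marker cells Lyz2 was 0.16 and H2-Ab1 3.33 with toxin alone. With exactly 1 Gzmb UMI, Ifitm2 was -0.43 and Lgals3 -2.06 with toxin alone and Cdkn2a -0.10 with both treatments. The cause was not tested. No paired analysis was possible because each group is 1 library.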
